A study of Rattus norvegicus with 6 samples.

Results

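Compact spliced lncRNAs were taken as the NONCODE lncRNAs whose transcript length was smaller than the stretch of genome they covered, and whose stretch (span, from start to end) was below 3000 nt. The rule used only identifier, length and position, and no expression value. It took 3799 of the 18649 lncRNAs listed in the rat INS-1 cell data, which was 20.4% of the list and 40.2% of the 9444 spliced NONCODE lncRNAs. The other 5645 spliced NONCODE lncRNAs, which spanned 3000 nt or more, served as the background.

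INS-1 cells derive from a rat insulinoma, release insulin and stand in for beta cells of the pancreatic islet. The study asked which lncRNAs differ in these cells under glucolipotoxicity, the cell damage caused by high glucose together with a saturated fatty acid. Total RNA was sequenced as paired-end, strand-specific libraries from 3 control samples (Con) and 3 samples treated with high glucose and palmitate (HG/PA). Con cells were grown in their usual glucose-containing medium, and HG/PA cells were held in 25 mM glucose with 0.5 mM palmitate for 24 h. The study's methods complexed the palmitate with albumin, and whether Con cells received that carrier was not stated. All samples came from a single tumour-derived line of Wistar origin, so other islet cells and the islet's architecture were lacking. The study's text calls its sequencing a biological triplicate, while the sample records do not state whether the samples of a group were separate cultures. The p-values measured the spread between these samples.

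LncRNAs are transcripts without a recognised protein product, and many of them are capped, spliced and polyadenylated like messenger RNA. Splicing joins the exons and removes the introns, so a spliced lncRNA is shorter than the stretch of genome it is transcribed from. A compact spliced lncRNA has little intronic sequence, often lies close to or across a neighbouring transcript, and can be hard to tell apart from it in sequencing reads.

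The values analysed were FPKM (fragments per kilobase of transcript, scaled to sequencing depth), and each was a whole multiple of what 1 fragment was worth at that length, so that fragments could be recovered. The implied totals were 13770876, 12491547 and 12529012 fragments in Con 1, 2 and 3. In HG/PA 1, 2 and 3 they were 12656957, 13688837 and 13187358. Compact spliced lncRNAs held 127745, 117828 and 120423 of these fragments in Con 1 to 3 and 107785, 113218 and 110843 in HG/PA 1 to 3. At their median length, 1 FPKM stood for 7.56 fragments. A floor of 3 fragments per sample, below which a level was not told from 0, was an FPKM of 0.376 to 0.415 at that length. Floors given here cover counting error only. The mean was under 3 fragments for 817 members, at least 10 for 1958 and at least 100 for 216.

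Members were short. Transcript length had a median of 579 nt (range 202 to 2948 nt), against 658 nt for the other spliced lncRNAs. Their median span was 1437 nt, against 9417 nt. The span exceeded the length by a median of 741 nt (range 5 to 2728 nt), against 8663 nt in the background. The transcript thus made up a median of 45.3% of the span in compact lncRNAs and 6.8% in the others. A difference of under 50 nt was found for 40 members, with a median of 13.5 nt. The tables held no exon positions, so the number of introns behind these differences was not known.

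**Figure D1:**
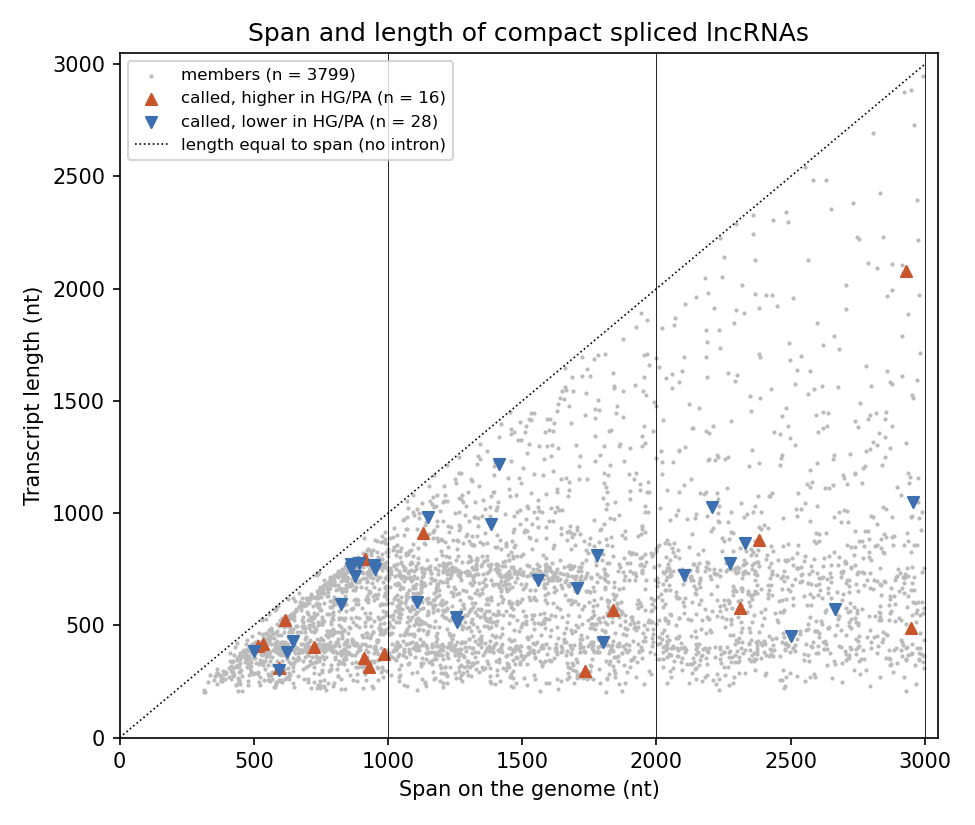
Transcript length (nt) against span on the genome (nt) for the 3799 compact spliced lncRNAs (grey), with those called higher (triangles up) and lower (triangles down) in HG/PA. The dotted line marks length equal to span, the vertical lines mark 1000, 2000 and 3000 nt, and called members lie at spans from under 1000 nt up to near the limit.

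As the plot of length against span shows, members crowded towards short transcripts at every span. Of all members, 1055 spanned under 1000 nt, 1693 spanned 1000 to under 2000 nt and 1051 spanned 2000 nt or more. Median transcript length was 433, 625 and 678 nt in these classes, and the transcript filled 69.5%, 43.9% and 27.1% of the span. Members lay on 21 chromosomes, with 495 on chromosome 1 (13.0% of members), 393 on chromosome 10 and 313 on chromosome 7. Chromosome 10 held 10.3% of the members and 7.4% of the other spliced lncRNAs. Compact lncRNAs were 49.4% of the spliced lncRNAs on chromosome 12 and 30.8% of those on chromosome 6. Another listed lncRNA overlapped 1335 members (35.1%), against 49.6% of the other spliced and 30.4% of all listed lncRNAs. The tables gave no strand, and how fragments were shared between overlapping transcripts was not stated, so values of overlapping members are uncertain.

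Values just inside and outside the span limit were of like size. At 2998 nt, NONRATT013649.2 had FPKM values of 1.76, 2.35 and 1.65 in Con and 1.77, 1.26 and 1.70 in HG/PA. NONRATT015241.2, at 2997 nt, had 1.596, 0.880 and 1.53 in Con and 0.434, 0.401 and 1.04 in HG/PA. Beyond the limit, NONRATT021198.2 (3000 nt) had 2.86, 3.06 and 1.97 in Con and 1.85, 2.97 and 3.46 in HG/PA. The Con and HG/PA values of these 3 lncRNAs overlapped. NONRATT026358.2 (3001 nt) had 0.493, 0.725 and 0.722 in Con and 0.894, 1.16 and 0.858 in HG/PA, with every HG/PA value above the Con values.

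The summed level of compact spliced lncRNAs was lower in HG/PA than in Con, and so was their share among spliced lncRNAs, in every sample. Their summed FPKM was 12250.3, 12413.0 and 12598.6 in Con 1, 2 and 3. It was 11267.5, 10996.5 and 11022.1 in HG/PA 1, 2 and 3. Every HG/PA sample lay below every Con sample. The means were 12420.6 ± 174 and 11095.4 ± 150 (SD, n = 3), a change of -10.7% (exact permutation p = 0.1, two-sided, and no smaller p can arise from 3 against 3 samples). In these bulk samples, fewer cells making an RNA and less of it per cell cannot be told apart.

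The other spliced lncRNAs summed to 20677.8, 20858.6 and 20959.4 in Con and to 19588.8, 19680.4 and 19894.4 in HG/PA, a change of -5.33%. Compact lncRNAs accordingly made up 37.2%, 37.3% and 37.5% of the spliced FPKM in Con 1 to 3 and 36.5%, 35.8% and 35.7% in HG/PA 1 to 3. The groups did not overlap in this share, with means of 37.4% ± 0.174 and 36.0% ± 0.454 (SD, n = 3; exact permutation p = 0.1). After rescaling of the samples by median ratios, the change in the members' sum was -2.18%. The groups stayed apart, at 11757.1, 11645.4 and 11844.2 in Con and 11527.2, 11502.9 and 11446.7 in HG/PA.

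**Figure D2:**
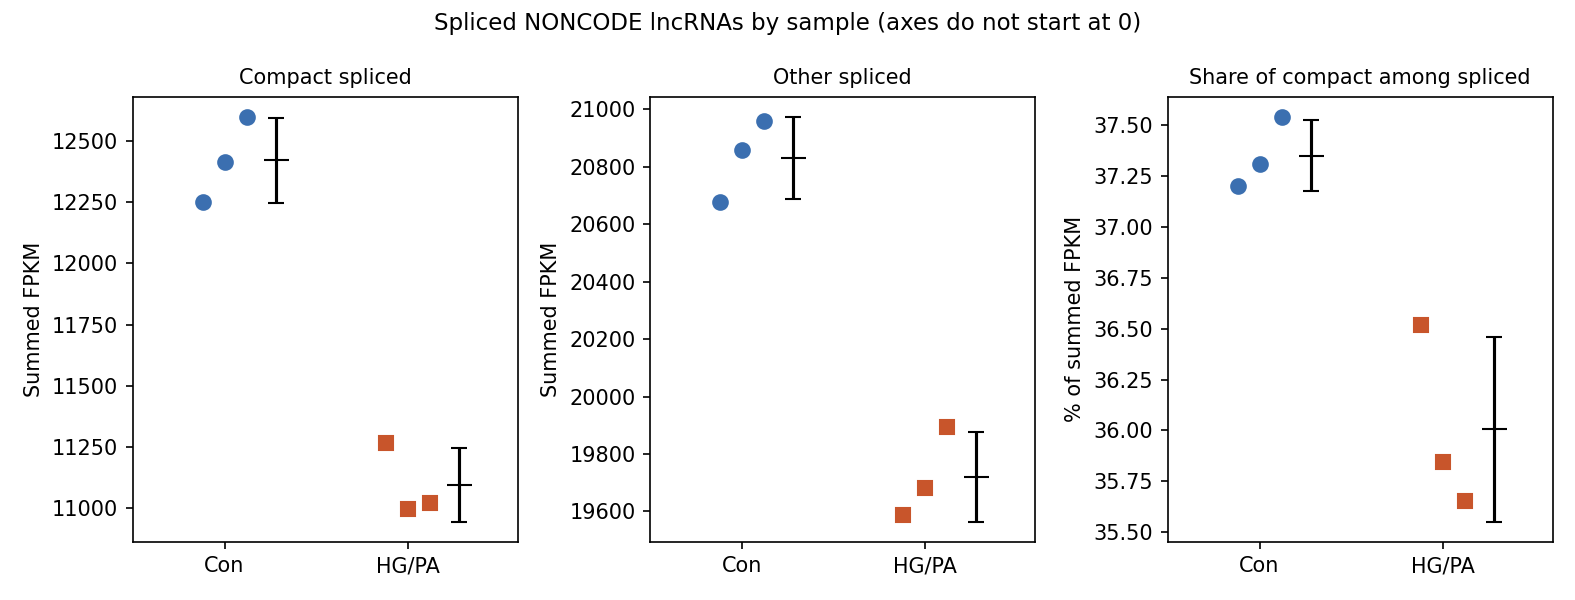
Summed FPKM of the compact spliced and of the other spliced NONCODE lncRNAs, and the compact share (%) of their sum, with 1 point per sample (circles Con, squares HG/PA) and mean ± SD beside them (n = 3). The axes do not start at 0, and in each panel all HG/PA points lie below all Con points.

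The lower sum was spread over many members. The HG/PA mean was lower for 2374 members (62.5%) and higher for 1425, while it was lower for 58.9% of the other spliced and 59.9% of all listed lncRNAs. Lower means added up to -2225.1 FPKM and higher means to 899.8 FPKM, a net difference of -1325.2. Without the 5 most abundant members the change in the sum was -10.3%. Members with an FPKM above 0 numbered 3532, 3520 and 3527 in Con and 3558, 3558 and 3538 in HG/PA, so slightly more were detected in HG/PA. Those with an FPKM of at least 1 numbered 2285, 2284 and 2287 in Con and 2246, 2189 and 2187 in HG/PA. The plot of summed FPKM by sample shows the tight Con and HG/PA points behind these group means.

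Levels were low and shared out among many members. The median mean FPKM was 1.49, against 1.25 for the other spliced and 1.45 for all listed lncRNAs. All 6 samples were above 0 for 83.1% of members, against 79.5% of the other spliced lncRNAs. The 10 most abundant members held 6.57% of the members' summed mean FPKM and the top 100 held 26.5%, and 390 members made up 50% of it.

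The 6 most abundant members covered FPKM means of about the same order, and 3 of them had an adjusted p under 0.05 in limma at changes of less than 2-fold. NONRATT026887.2 (chr7:76871407-76873447, Rnor_6.0) had FPKM values of 121, 116 and 146 in Con and 81.3, 92.4 and 84.6 in HG/PA. Its HG/PA values all lay below its Con values, with a log2 fold change of -0.56 (-0.45 relative to all tested, SE 0.10, limma adjusted p = 0.0401). NONRATT006186.2 (chr10:94980928-94982803) had 121, 116 and 112 in Con and 83.7, 86.5 and 89.0 in HG/PA. It was lower in each HG/PA sample than in any Con sample, by -0.43 (-0.31 relative to all tested, SE 0.05, limma adjusted p = 0.0145). NONRATT030302.2 (chr9:100169241-100171721) had 87.5, 89.4 and 98.5 in Con and 72.3, 69.5 and 69.0 in HG/PA. Again the groups did not overlap, and the log2 fold change was -0.38 (-0.27 relative to all tested, SE 0.06, limma adjusted p = 0.0331). These adjusted p-values stayed under 0.05 in 5, 8 and 6 of 16 alternative settings, in that order. After median-of-ratios rescaling all 3 were above it, at limma adjusted p-values of 0.0937, 0.0652 and 0.0958 and log2 fold changes of -0.43, -0.30 and -0.25.

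The remaining members of these 6 did not pass the test. NONRATT024779.2 had FPKM values of 98.6, 97.8 and 80.0 in Con and 86.3, 73.8 and 84.0 in HG/PA (limma adjusted p = 0.443). NONRATT021625.2, whose span exceeded its length by 13 nt, had 83.3, 87.3 and 97.9 in Con and 82.0, 76.7 and 80.1 in HG/PA (limma adjusted p = 0.310). NONRATT004311.2 had 80.5, 84.3 and 98.8 in Con and 81.0, 75.0003 and 70.8 in HG/PA (limma adjusted p = 0.308). Con and HG/PA values overlapped for NONRATT024779.2 and NONRATT004311.2, while those of NONRATT021625.2 did not.

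Differences of single members were tested with limma on log2(FPKM + 0.1), a scale that understates the change of low values. A member was called when its fold change was at least 2 and its adjusted p (Benjamini-Hochberg, over all 17558 lncRNAs tested) was below 0.05. A filter that asked for an FPKM of 0.1 or more in 3 or more of the 6 samples left 3613 of the 3799 members, and 186 were not tested. Of the tested members, 44 were called (1.22%), against 1.49% of all lncRNAs tested and 1.35% of the other spliced ones. They comprised 16 rises (0.443%, against 0.655% of all tested and 0.648% of the other spliced) and 28 falls (0.775%, against 0.832% and 0.705%). The share of falls thus lay between that of the other spliced lncRNAs and that of all tested. In all 44 the Con and HG/PA values did not overlap, which is no support beyond the call, since both use the same 6 samples. Called rises had adjusted p-values of 0.00377 to 0.0460 and a median log2 fold change of 2.17. Of these 16, 8 were at 0 in all Con samples, where the pseudocount sets the size of the change, and with those 8 at their bound (0 where none could be given) the median was 1.29. Called falls had adjusted p-values of 0.00436 to 0.0497 and a median of -1.46, or -1.43 with the 3 that were at 0 in all HG/PA samples at their bound. These 11 members could pass the filter only through the group in which they were present.

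**Figure D3:**
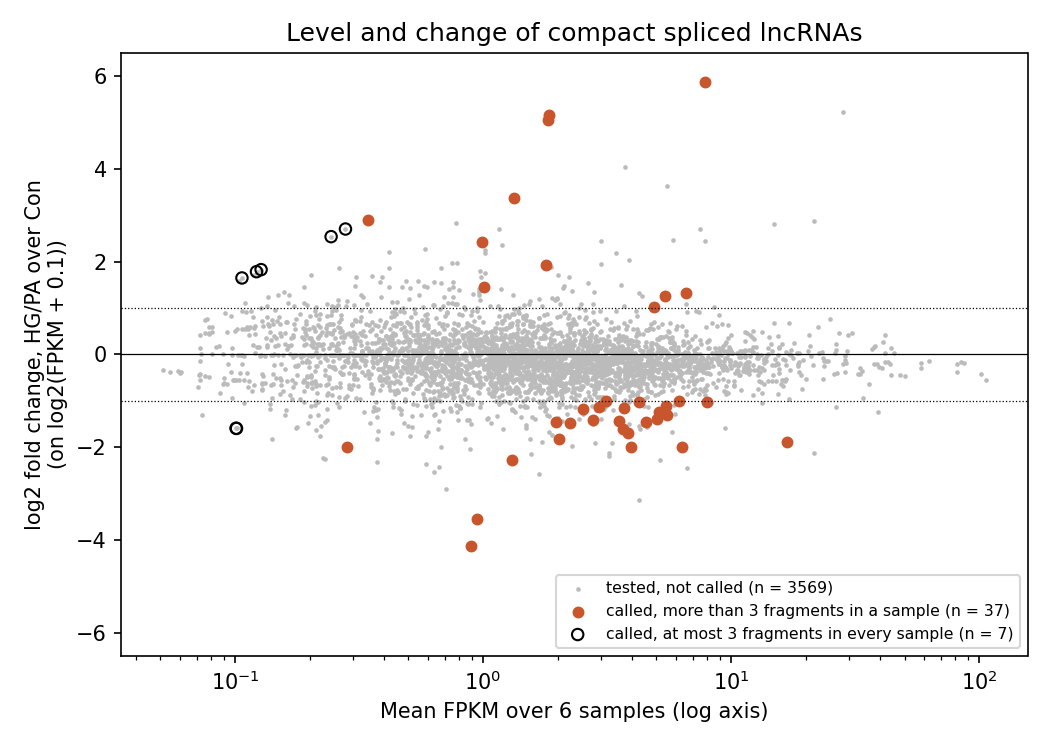
Log2 fold change (HG/PA over Con, on log2(FPKM + 0.1)) against mean FPKM over the 6 samples (log axis) for the 3613 compact spliced lncRNAs tested. Filled points are the 37 called members with more than 3 fragments in at least 1 sample, open circles the 7 called with at most 3 fragments in every sample, and dotted lines a 2-fold change.

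As the plot of change against level shows, 20 of the 28 called falls had a mean FPKM of 2 to under 10, and 12 of the 16 called rises lay below 2. More than 3 fragments in at least 1 sample were present for 37 called members (11 rises and 26 falls), which was 1.02% of the members tested, against 1.32% of all tested. The study's methods name a fold change of at least 2 with a p of at most 0.05, without stating whether it was adjusted. With an unadjusted p below 0.05 and the same fold change, 200 members passed (5.54%, against 6.49% of all tested and 6.42% of the other spliced). These were 62 rises (1.72%, against 2.59% and 2.69%) and 138 falls (3.82%, against 3.90% and 3.74%). The split depended on scaling, with 82 rises and 96 falls after median-of-ratios rescaling and 79 and 93 after quantile normalization. At any fold change, 69 members had an adjusted p below 0.05 (1.91%, against 2.77% of all tested). Of these, 25 changed by less than 2-fold (0.692% of the members tested, 4 higher and 21 lower), against 1.29% of all tested (70 higher and 156 lower). The groups did not overlap, with HG/PA higher, for 182 members (5.04%, against 7.44% of all tested and 6.77% of the other spliced). They did not overlap, with HG/PA lower, for 557 (15.4%, against 16.2% and 14.6%).

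The median log2 fold change of the tested members was -0.14 (quartiles -0.46 and 0.19), against -0.09 for the other spliced lncRNAs and -0.12 for all tested. It was -0.14 also with the 17 members at 0 in a whole group set to their floor of 3 fragments. Relative to all tested, the members' median was -0.03 and that of the other spliced lncRNAs 0.02. By the unscaled medians of -0.14 and -0.12, most of the members' downward shift was shared by all lncRNAs tested. Median-of-ratios rescaling, which centres the ratios of these same lncRNAs, moved the median of all tested from -0.12 to 0.01. That of the members moved to -0.02. Changes relative to the median of all tested are therefore given beside those of the called members described below. The share of rises among called members moved with the settings as well. From 36.4% (16 of 44) it went to 47.2% (17 of 36) after rescaling and to an even split (17 of 34) after quantile normalization. With a filter at an FPKM of 1 it was 23.3% (10 of 43), and with a pseudocount of 1 it was 32.0% (8 of 25). In limma without a trend it was 46.4% (13 of 28). When each sample was left out, it ranged from 37.5% without HG/PA 1 to 57.1% without Con 2, where 8 rises outnumbered 6 falls.

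Which members were called also changed when a sample was left out, which leaves fewer samples in the fit. Without Con 1, 2 or 3, limma called 21, 14 and 15 members at an adjusted p below 0.05. Without HG/PA 1, 2 or 3 it called 16, 19 and 23. Of the 44 members, 13, 11 and 10 were also called without Con 1, 2 and 3, and 11, 11 and 15 without HG/PA 1, 2 and 3. With an unadjusted p the count lay between 192 and 239 in these fits.

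The 3 largest called rises by log2 fold change had no fragments in at least 2 Con samples. NONRATT021493.2 (chr4:100222885-100224722, 569 nt long) was at 0 in every Con sample and at 5.42, 2.70 and 2.93 in HG/PA, from 39, 21 and 22 fragments. All HG/PA samples were thus above all Con samples, and the HG/PA mean was at least 9.01-fold higher when Con was set to a floor of 3 fragments per sample. The fitted log2 fold change was 5.17 (5.29 relative to all tested, SE 0.37, limma adjusted p = 0.00377). It overlapped NONRATT021491.2, which varied widely within each group (165, 44 and 200 fragments in Con, against 44, 95 and 172 in HG/PA).

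NONRATT018750.2 (chr3:148215582-148216710, 913 nt long) was likewise at 0 in Con and at 6.14, 2.96 and 1.83 in HG/PA, from 71, 37 and 22 fragments. The groups did not overlap, and the mean was higher in HG/PA by at least 14.3-fold against the same floor. Its log2 fold change was 5.06 (5.17 relative to all tested, SE 0.47, limma adjusted p = 0.00616). The unspliced NONRATT018749.2, which covered the whole of it, had 17, 24 and 48 fragments in Con against 61, 63 and 87 in HG/PA, and it was not called (limma adjusted p = 0.178). The adjusted p of NONRATT021493.2 and of NONRATT018750.2 stayed below 0.05 in 15 of 16 alternative settings. Their log2 fold changes depended on the pseudocount, since Con was at 0: that of NONRATT021493.2 was 8.46 with a pseudocount of 0.01 and 2.18 with 1.

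NONRATT003502.2 (chr1:222164462-222167408) had the widest gap between span and length among called members, 2460 nt. It was at 0, 1.64 and 0 in Con and at 15.2, 13.8 and 16.2 in HG/PA, from 0, 10 and 0 and from 94, 92 and 104 fragments. Con 2 alone of the Con group held any fragments, and the HG/PA values were close to each other. With Con 1 and 3 set to 3 fragments, the mean FPKM was at least 17.5-fold higher in HG/PA. The log2 fold change was 5.87 (5.98 relative to all tested, SE 1.08, limma adjusted p = 0.0445), and its adjusted p stayed below 0.05 in 6 of 16 alternative settings. None of the 3 lncRNAs that it overlapped was called, namely NONRATT003503.2, NONRATT003504.2 and NONRATT003505.2, with log2 fold changes of -0.51, 0.02 and -0.73.

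A pair of overlapping members on chromosome 2 rose together. NONRATT015590.2 (chr2:198684657-198685571) had 1, 1 and 3 fragments in Con against 28, 25 and 25 in HG/PA, for FPKM values of 0.0915, 0.101 and 0.302 and of 2.79, 2.30 and 2.39. Every HG/PA value lay above the Con values. The mean was at least 8.51-fold higher with Con at 3 fragments per sample, with a log2 fold change of 3.37 (3.49 relative to all tested, SE 0.38, limma adjusted p = 0.0111). NONRATT015591.2 (chr2:198684808-198685323), which lay within it, had 2, 1 and 1 fragments in Con against 8, 9 and 11 in HG/PA. With Con at 3 fragments its mean was at least 3.04-fold higher in HG/PA, with a log2 fold change of 2.41 (2.53 relative to all tested, SE 0.32, limma adjusted p = 0.0179). NONRATT015592.2 overlapped both, with 0, 9 and 14 fragments in Con against 12, 16 and 8 in HG/PA (limma adjusted p = 0.615). Since their spans overlap, fragments may be shared between them, and they were not separate observations. Their adjusted p-values stayed below 0.05 in 12 and 9 of 16 alternative settings.

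**Figure D4:**
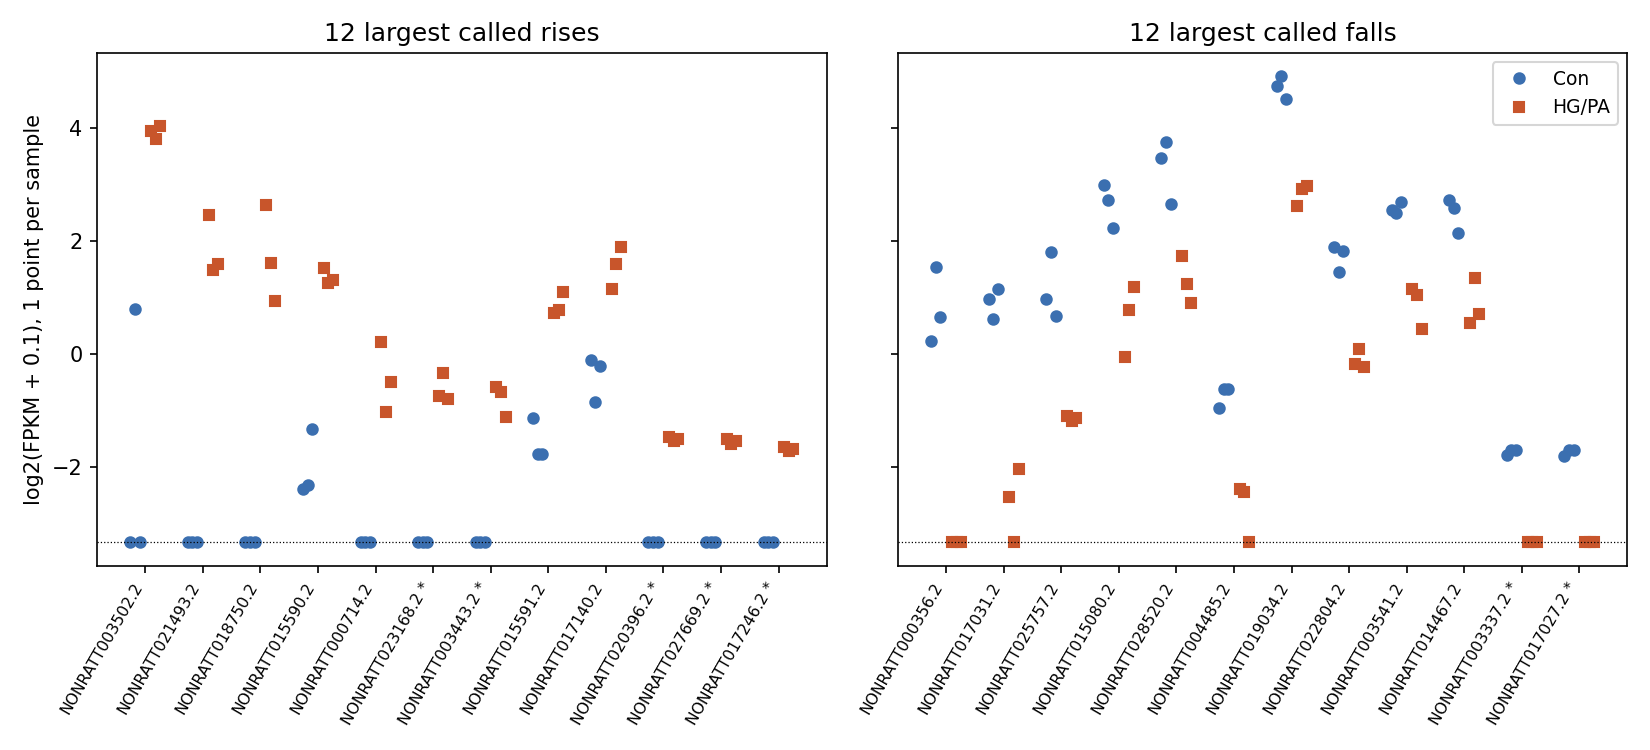
Log2(FPKM + 0.1) in each sample (circles Con, squares HG/PA) for the 12 largest called rises and the 12 largest called falls among compact spliced lncRNAs. The dotted line marks an FPKM of 0, and stars mark members with at most 3 fragments in every sample. The members were chosen so that the groups do not overlap.

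In the plot of the largest rises and falls, members marked by stars rest on very few fragments. NONRATT017140.2 (chr20:5376995-5377610) rose from 0.835, 0.460 and 0.765 in Con to 2.12, 2.94 and 3.63 in HG/PA, from 6, 3 and 5 to 14, 21 and 25 fragments. It was 4.22-fold higher by mean FPKM, with separate groups and a log2 fold change of 1.93 (2.05 relative to all tested, SE 0.32, limma adjusted p = 0.0351). NONRATT000714.2 (chr1:101702565-101703548) was at 0 in Con and had 5, 2 and 3 fragments in HG/PA, which allowed a statement of at least 1.10-fold only. The adjusted p stayed below 0.05 in 7 of 16 alternative settings for NONRATT017140.2 and in 6 of 15 for NONRATT000714.2. The 4 called rises outside the 12 largest, chosen after their values were seen, were NONRATT026440.2, NONRATT002147.2, NONRATT020089.2 and NONRATT028358.2. Of these, NONRATT002147.2 had FPKM values of 3.77, 3.36 and 3.94 in Con and 8.78, 8.66 and 10.9 in HG/PA. Its groups were far apart for their spread, with a log2 fold change of 1.33 (1.44 relative to all tested, SE 0.15, limma adjusted p = 0.0110). NONRATT028358.2, the longest of the 4 at 2077 nt, had 3.36, 2.97 and 3.15 in Con and 5.44, 6.30 and 8.07 in HG/PA. This was a rise of 1.02 on the log2 scale (1.14 relative to all tested, SE 0.18, limma adjusted p = 0.0416).

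Very low counts lay behind 7 of the 44 calls. The rises NONRATT020396.2, NONRATT027669.2 and NONRATT017246.2 had 1 fragment in each HG/PA sample and none in Con. NONRATT023168.2 had 2, 3 and 2 fragments in HG/PA and NONRATT003443.2 had 3, 3 and 2, both with 0 in Con. Among the falls, NONRATT003337.2 had 1 fragment in each Con sample and NONRATT017027.2 had 2, with 0 in HG/PA for both. Neither group of these 7 exceeded the floor of 3 fragments in any sample, so no fold is given for them. Without the filter, NONRATT017246.2, NONRATT003337.2 and NONRATT017027.2 were no longer called (limma adjusted p = 0.0527, 0.0566 and 0.0570). Of the 7, 6 spanned under 1000 nt.

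Of the 28 called falls, 20 lay at a mean FPKM of 2 to under 10 and 1 above it. NONRATT019034.2 (chr3:2570721-2571597, 721 nt long) was the most abundant called fall and the only member among 11 lncRNAs for which the study designed primers or which it listed as candidates. Its FPKM was 26.6, 29.98 and 22.8 in Con 1, 2 and 3 and 6.03, 7.498 and 7.78 in HG/PA 1, 2 and 3. These rested on 264, 270 and 206 fragments in Con and on 55, 74 and 74 in HG/PA. All HG/PA samples lay well below the Con samples, with means of 26.5 ± 3.59 and 7.10 ± 0.942 (SD, n = 3). The mean FPKM was 3.73-fold lower in HG/PA, and the log2 fold change was -1.88 (-1.77 relative to all tested, SE 0.15, limma adjusted p = 0.00436). Its adjusted p remained below 0.05 in 15 of 16 alternative settings. Since the study picked this lncRNA from these same samples, its fall here is no independent evidence.

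Neighbours of NONRATT019034.2 fell with it, as was seen after the values were known. NONRATT019035.2 (chr3:2571452-2572312), which overlapped it, had FPKM values of 4.81, 5.41 and 5.39 in Con and 1.99, 1.64 and 1.91 in HG/PA. The groups did not overlap, and the log2 fold change was -1.45 (-1.33 relative to all tested, SE 0.17, limma adjusted p = 0.0119). NONRATT019036.2 (chr3:2572488-2573348), which overlapped no listed lncRNA and had the smallest gap between span and length among called members (88 nt), had 6.29, 7.35 and 8.05 in Con and 2.56, 3.02 and 3.43 in HG/PA. It too was lower in every HG/PA sample, by -1.24 on the log2 scale (-1.13 relative to all tested, SE 0.17, limma adjusted p = 0.0205; below 0.05 in 8 of 16 alternative settings). On the other side, the unspliced NONRATT019033.2 had 14.0, 16.9 and 19.5 in Con and 5.56, 4.24 and 3.01 in HG/PA, for a log2 fold change of -1.98 (-1.87 relative to all tested, SE 0.24, limma adjusted p = 0.0133).

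**Figure D5:**
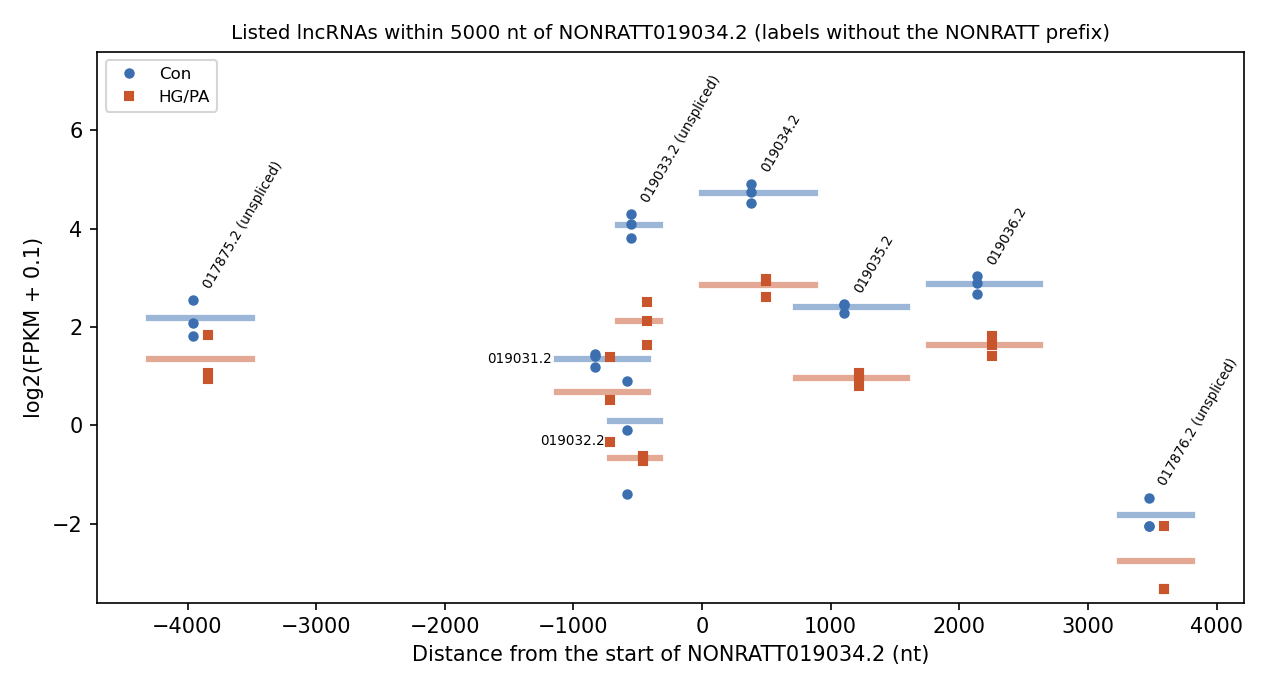
Log2(FPKM + 0.1) of the 8 listed lncRNAs within 5000 nt of NONRATT019034.2 against distance (nt) from its start, with bars at the group means over each span and points for the samples (circles Con, squares HG/PA). For each of the 8 the HG/PA mean bar lies below the Con bar.

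All 8 listed lncRNAs within 5000 nt, including NONRATT019034.2 itself, had negative log2 fold changes, and 4 were called, as the plot by distance shows. Among all tested, 60.1% had a negative log2 fold change and 1.49% were called. The stretch was chosen around a called fall, so its counts are no sample of the genome. The compact members NONRATT019031.2 and NONRATT019032.2 had log2 fold changes of -0.83 and -0.47 and did not pass (limma adjusted p = 0.391 and 0.733). The unspliced NONRATT017875.2 and NONRATT017876.2 had -0.86 and -1.05, also without passing (limma adjusted p = 0.221 and 0.306). Whether these transcripts come from a common longer RNA was not tested.

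The largest falls by fold had few fragments in HG/PA. NONRATT000356.2 (chr1:72463213-72464465) had FPKM values of 1.08, 2.82 and 1.48 in Con, from 8, 19 and 10 fragments, and was at 0 in every HG/PA sample. Its mean was at least 4.24-fold lower in HG/PA against a floor of 3 fragments per sample, with a log2 fold change of -4.14 (-4.02 relative to all tested, SE 0.41, limma adjusted p = 0.00731). In 14 of 16 alternative settings the adjusted p was below 0.05. NONRATT017031.2 (chr20:3162540-3165494) had 1.87, 1.45 and 2.13 in Con and 0.0752, 0 and 0.144 in HG/PA, from 27, 19 and 28 and from 1, 0 and 2 fragments. Its Con values all lay above HG/PA, by a mean that was at least 8.36-fold higher with HG/PA at 3 fragments per sample, and by a log2 fold change of -3.54 (-3.43 relative to all tested, SE 0.42, limma adjusted p = 0.0129). The unspliced NONRATT017030.2, which overlapped its start, had 19, 19 and 34 fragments in Con against 1, 3 and 3 in HG/PA, and it was called as well (limma adjusted p = 0.0194). NONRATT025757.2 (chr7:40217269-40219069) had 11, 18 and 8 fragments in Con against 2 in each HG/PA sample. The groups were separate, and the mean was at least 4.21-fold lower with HG/PA at 3 fragments (log2 fold change -2.29, or -2.17 relative to all tested, SE 0.36, limma adjusted p = 0.0286). NONRATT004485.2 (chr10:56824152-56826480) had 5, 6 and 6 fragments in Con against 1, 1 and 0 in HG/PA. With HG/PA at 3 fragments per sample its mean was at least 1.93-fold lower, which is below the 2-fold limit. At a limma adjusted p of 0.0497 it lay just within the threshold, and it stayed there in 2 of 15 alternative settings. For NONRATT017031.2 and NONRATT025757.2 the adjusted p was below 0.05 in 9 and 7 of 16 settings.

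Falls at moderate levels varied more in some members than in others. NONRATT028520.2 (chr8:52924221-52925477) had FPKM values of 11.02, 13.4 and 6.21 in Con and 3.23, 2.27 and 1.77 in HG/PA. Con 3 was the lowest Con sample but still above HG/PA, and the log2 fold change was -2.001 (-1.89 relative to all tested, SE 0.34, limma adjusted p = 0.0361). NONRATT015080.2 (chr2:57318585-57321086) had 7.85, 6.54 and 4.58 in Con and 0.872, 1.61 and 2.18 in HG/PA. Groups were separate, at a log2 fold change of -2.01 (-1.89 relative to all tested, SE 0.36, limma adjusted p = 0.0419). NONRATT022804.2 (chr5:159213513-159214106) had 3.61, 2.65 and 3.44 in Con and 0.785, 0.968 and 0.753 in HG/PA, but from no more than 15 fragments in any sample. All its HG/PA samples were lower, with a log2 fold change of -1.83 (-1.71 relative to all tested, SE 0.24, limma adjusted p = 0.0159). NONRATT014467.2 (chr19:11301986-11303133) had 6.51, 5.87 and 4.31 in Con and 1.37, 2.45 and 1.54 in HG/PA. Its groups did not overlap either, and the log2 fold change was -1.61 (-1.49 relative to all tested, SE 0.28, limma adjusted p = 0.0382).

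These 4 falls differed in how far their calls depended on the settings. The adjusted p stayed below 0.05 in 6 of 16 alternative settings for NONRATT028520.2, in 3 for NONRATT015080.2, in 9 for NONRATT022804.2 and in 5 for NONRATT014467.2. After scaling, NONRATT015080.2 and NONRATT014467.2 missed the threshold while their log2 fold changes stayed near, at -1.88 and -1.48 after rescaling. Their limma adjusted p-values were 0.0615 and 0.0569 after median-of-ratios rescaling, and 0.0638 and 0.0604 after quantile normalization. NONRATT004485.2 missed it after rescaling (log2 fold change -1.91, limma adjusted p = 0.0620), and NONRATT028520.2 after quantile normalization (log2 fold change -1.87, limma adjusted p = 0.0511).

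A pair of overlapping members on chromosome 1 fell together. NONRATT003541.2 (chr1:224907654-224908545) had FPKM values of 5.78, 5.55 and 6.35 in Con and 2.13, 1.97 and 1.27 in HG/PA. Each HG/PA sample was below each Con sample, at a log2 fold change of -1.70 (-1.58 relative to all tested, SE 0.23, limma adjusted p = 0.0180). NONRATT003542.2 (chr1:224908091-224909504), named after its values were seen, had 7.46, 6.38 and 6.36 in Con and 2.21, 2.70 and 2.24 in HG/PA. It showed the same separation, with a log2 fold change of -1.46 (-1.35 relative to all tested, SE 0.16, limma adjusted p = 0.0103). For NONRATT003541.2 the adjusted p stayed below 0.05 in 10 of 16 alternative settings.

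A further pair of falls, picked after their values were seen, had closely spaced replicates. NONRATT026793.2 (chr7:63706366-63708070) had FPKM values of 7.29, 7.32 and 7.30 in Con and 2.49, 2.85 and 2.84 in HG/PA. Its means of 7.31 ± 0.0143 and 2.73 ± 0.206 (SD, n = 3) were wide apart for their spread, with a log2 fold change of -1.39 (-1.28 relative to all tested, SE 0.14, limma adjusted p = 0.00691). NONRATT023683.2 (chr5:151703142-151704918) had 8.23, 7.69 and 7.67 in Con and 3.31, 2.79 and 3.27 in HG/PA. Its fall measured -1.31 on the log2 scale (-1.19 relative to all tested, SE 0.14, limma adjusted p = 0.00848). Neither overlapped another listed lncRNA.

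Called members were counted in each structural class. Among members spanning under 1000 nt, 20 of 1013 tested were called (1.97%, 9 up and 11 down), and 14 of these (1.38%) had more than 3 fragments in a sample. For spans of 1000 to under 2000 nt the count was 13 of 1596 (0.815%, 3 up and 10 down), of which 12 (0.752%) had that many fragments. For 2000 nt or more it was 11 of 1004 (1.10%, 4 up and 7 down), and all 11 had them. The median log2 fold change was -0.14 in each of the 3 span classes. None of the 37 tested members whose span exceeded their length by under 50 nt was called by limma at the adjusted p, and 2 passed at the unadjusted p (5.41%). The shares of all tested were 1.49% and 6.49%, so a count of 0 among 37 says little. With a difference of 50 to under 500 nt, 21 of 1307 were called (1.61%). With 500 to under 1000 nt the count was 9 of 903 (0.997%), and with 1000 nt or more it was 14 of 1366 (1.02%). No test between classes was made.

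Falls outnumbered rises in a single class of level, for members and for all listed lncRNAs alike, apart from 1 call at the highest level. Below a mean FPKM of 0.5, 9 of 700 tested members were called (1.29%, 6 up and 3 down), of which 2 had more than 3 fragments in a sample. All listed lncRNAs had 1.23% called there (29 up and 18 down). From 0.5 to under 2, 10 of 1376 members were called (0.727%, 6 up and 4 down), against 0.695% of all listed lncRNAs (22 up and 20 down). From 2 to under 10 the count was 24 of 1334 (1.80%), with 4 rises and 20 falls. In that class the other spliced lncRNAs had 35 of 1694 called (2.07%), with 15 rises and 20 falls, and all listed lncRNAs had 2.06% called, with 40 rises and 86 falls. At 10 or more, 1 of 203 members was called (0.493%), NONRATT019034.2. Of 438 other spliced lncRNAs 10 were called there (2.28%, 4 up and 6 down, so falls outnumbered rises there too), and of all listed ones 2.89% (24 up and 22 down). The median log2 fold change of members was -0.02, -0.13, -0.20 and -0.18 from the lowest to the highest class. The median SD within groups, on the log2 scale, was 0.65, 0.48, 0.30 and 0.17. Differences between members and background in these classes were not tested.

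Overlap with another listed lncRNA was found for 21 of the 44 called members. Of 1267 overlapping members tested 1.66% were called (10 up and 11 down), and of 2346 without overlap 0.98% (6 up and 17 down). The other spliced lncRNAs had 1.17% and 1.53% in the same classes, and all listed lncRNAs 1.32% and 1.56%. After joining called members that overlapped each other, 41 separate stretches were left. There were 28 pairs of a called member and a tested lncRNA overlapping it, and the log2 fold changes had the same sign in 21 of them. Both were called in 4 pairs, all described above. Fragments may be shared within such pairs, and 60.1% of all tested had a negative log2 fold change. Whether like signs were more frequent than this would bring was not tested.

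Called members lay on 14 chromosomes. Chromosome 1 held 10 of them (4 up and 6 down; 2.14% of those tested there, against 1.74% of all lncRNAs tested there). Chromosome 20 held 5 of 99 tested (5.05%, against 2.07% of all tested there), of which NONRATT017246.2 and NONRATT017027.2 had at most 2 fragments per sample. On chromosome 4, 3 of 194 tested members were called (1.55%, against 2.14% of all tested there). All 3 rose, namely NONRATT021493.2, NONRATT020396.2 and NONRATT020089.2, while all listed lncRNAs on it had 11 rises and 11 falls. Of the 3, NONRATT020396.2 had at most 1 fragment per sample. No member was called on chromosomes 6, 9, 11, 14, 15, 18 and X at the adjusted p in limma, where 70 to 133 members each were tested. All listed lncRNAs had 0.884%, 1.06%, 1.65%, 1.13%, 2.14%, 2.43% and 0.781% called there, so counts of 0 say little. Altogether the called members made up -57.6 of the net -1325.2 FPKM by which the sum differed without rescaling, or 4.3%. The greater part of the lower sum on that scale thus lay in members that were not called singly. After median-of-ratios rescaling the net difference was -256.6 FPKM, and the called members' share of it was not worked out.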

How the data were processed

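Total RNA of INS-1 cells was sequenced by the authors, for 3 Con samples (medium with 11.1 mM glucose, per the study's methods) and 3 HG/PA samples. The study's methods name TRIzol for extraction and the sample records a column kit. The authors filtered reads with seqtk, mapped them with HISAT2 to Rnor_6.0 and deposited FPKM values from StringTie for annotated lncRNAs, with position and length. The authors tested with edgeR, which needs counts. Here the deposited FPKM values were tested with limma 3.58.1 (R 4.3.3; lmFit, eBayes with trend) on log2(FPKM + 0.1) over all lncRNAs with FPKM of at least 0.1 in 3 samples, with Benjamini-Hochberg adjustment and no further scaling. The procedure was tested on simulated data. There it missed most differences of 2-fold, even with at least 10 fragments, while most larger ones were called. A member that was not called may therefore still differ by about 2-fold. Other steps used Python 3.11.15, numpy 2.4.6, scipy 1.17.1 and pandas 2.3.3.

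Fragments were recovered as FPKM times length over a step per sample, and 100.0% of values were whole within 0.1 step. In each replicate pair, members with at least 10 fragments differed by more than counting noise (chi-square per degree of freedom 3.36 to 4.23), so no sample was counted as a duplicate. Named members were the 12 largest called rises and 12 largest called falls with groups that did not overlap, the 6 most abundant, those among the study's 11 candidate and primer lncRNAs, 2 on each side of the span limit, and the called members with the smallest and largest gap between span and length. Members, lists and rule were chosen with earlier results of these data known. Alternatives were pseudocounts, filters, rescaling, quantile normalization, no trend, a replicate block, limma-voom on recovered fragments, leaving out each sample, and other limits of fold, span, gap and overlap. The files pair no lncRNA with a gene name, and a gene table of another assembly was not used. Protein-coding genes, beta cell marker genes, qRT-PCR and functional assays were not analysed here.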

Additional observations from a re-analysis of the deposited data

How the results depend on the processing

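The count of 44 called members at the adjusted p was 28 in limma without a trend, 25 with a pseudocount of 1 and 23 over members that overlap no other listed lncRNA, and ranged from 14 to 23 when each sample was left out. Of the other settings, it was 43 with a filter at an FPKM of 1, 36 after rescaling, 34 after quantile normalization, 38 without a filter, 39 with a pseudocount of 0.01 and 61 at a fold of 1.5. Limma-voom on the recovered fragments called 37, of which 33 were among the 44. The restriction to more than 3 fragments in a sample, chosen after seeing the data, left 37. The 200 members at the unadjusted p became 119 with a filter at an FPKM of 1 and 44 with a pseudocount of 1. The median log2 fold change of -0.14 was -0.175 with that filter, -0.08 with a pseudocount of 1, -0.021 after rescaling and -0.028 after quantile normalization. Except where fewer lncRNAs or samples entered the fit, the cause was not tested.

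With the replicate number as a replicate block, limma called 0 members at the adjusted p and 217 at the unadjusted p, against 200 without it. Limma-voom with a replicate block, chosen after seeing the data, called 3 and 193, and without the block 37 and 204. Deviations of samples with the same number had correlations of -0.038, 0.030 and 0.000 over the members. Those of samples with other numbers ranged from -0.055 to 0.053. No pairing by number was seen in these values, and whether samples of a number shared a culture or batch was not known. The summed FPKM kept its direction in all settings run, from -11.4% to -2.18%. Leaving out a sample could not change that direction, since the groups did not overlap. Of 25 named called members, none reversed in any setting run. Their groups did not overlap, so leaving out a sample could not reverse them. Between 6 and 10 of them kept an adjusted p below 0.05 without single samples. NONRATT019034.2, NONRATT018750.2 and NONRATT021493.2 rose above an adjusted p of 0.05 only with the block on log2 FPKM. Depth limited the 817 members with a mean under 3 fragments, for which a fold could seldom be given.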

Other observations

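Some members jumped between replicates of the same group, as was seen after the values were known. In 53 members (1.40%) a replicate was at 0 while another of its group held at least 20 fragments, against 120 of the other spliced (2.13%) and 73 of the unspliced NONCODE lncRNAs (0.86%). Another listed lncRNA overlapped 31 of the 53 (58.5%), 75.8% of those among the other spliced and 17.8% of those among the unspliced. Over each whole class the shares were 35.1%, 49.6% and 15.7%, in that order. Limma called none of any class at the adjusted p, and so wide a spread within a group leaves little room for a call. NONRATT008852.2 (chr13:74280172-74282320), which overlapped none, had FPKM values of 0, 0 and 48.7 in Con and 55.6, 7.96 and 57.2 in HG/PA. Con 3 was thus near HG/PA 1 and 3, and the log2 fold change of 5.23 did not pass (limma adjusted p = 0.331). NONRATT028004.2 (chr8:115131458-115133401) had 0.563, 83.4 and 0.412 in Con and 0.306, 1.70 and 6.37 in HG/PA, so that Con 2 alone was high, with 806 fragments.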
